A study of Mus musculus with 2 samples.

Results

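Liver sinusoidal endothelial cells (LSEC) were chosen by the raw counts of 4 marker genes from mouse liver cells profiled with 10x Genomics droplets, in which each captured transcript carries a unique molecular identifier (UMI). The markers were Stab2, which clears hyaluronan from blood, Kdr, a receptor of vascular endothelial growth factor, Ptprb, a phosphatase of endothelial junctions, and Clec4g, a sinusoidal C-type lectin. A cell was taken when these 4 genes together had at least 6 UMI. It could hold at most 8 UMI of the Kupffer cell genes Clec4f, C1qa, C1qb and C1qc, at most 1 of the T cell genes Cd3d and Cd3e, at most 2 of the B cell genes Ebf1 and Ms4a1, and had to have under 4 of the cycling genes Mki67 and Top2a. Of 11192 deposited barcodes, 10366 were kept, with a minimum of 500 UMI and 200 genes and no more than 10% of UMI from mitochondrial genes. LSEC were 867 of these, or 8.36% (exact Clopper-Pearson 95% interval 7.84 to 8.91%). With at most 5% mitochondrial UMI the share was 4.78%, outside this interval.

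The series named an Rcrin KO sample, from mice with a conditional knockout of Rcrin in the liver, and a WT sample, from mice with floxed Rcrin. Both came from mice of the strain given as RedMUC298trTg at 8 weeks of age. The promoter that drives the Cre recombinase, and whether animals were pooled, are not given in the sources used here. Livers were digested with collagenase and the suspension was sorted, and both samples carry the cell type label immune cells. The gate of the sort is likewise not given, so the share of LSEC describes the sorted suspension and not the liver.

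All 3 deposited files of the Rcrin KO sample were identical to those of the WT sample, and all 11192 barcodes were shared. The 2 samples therefore held 1 matrix, no cell could be assigned to a genotype, and the genotypes were not compared. Rcrin matched none of the 31053 gene symbols and was not analysed here. With 1 matrix there are no replicates and no tests. Levels are given as CPM, the UMI of a gene per 1000000 summed UMI of a cell set, and intervals are exact 95% intervals that cover counting error only, which leaves out variation between cells and animals. Ratios are ratios of CPM. A gene was called at a ratio of at least 2 or at most 0.5, among genes with at least 20 UMI over the cells compared. A set with 0 UMI was given 3 counts, which makes the ratio a bound.

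Sinusoidal endothelial cells line the liver capillaries. They lack a continuous basement membrane, carry open pores called fenestrae and take up waste molecules from blood through scavenger receptors. Blood flows past them from the portal triad to the central vein, and the cells differ along this path. Those near the central vein are known for Wnt ligands and for Rspo3, which strengthens Wnt signalling and patterns the neighbouring hepatocytes. Those near the portal triad carry genes shared with arteries, such as Efnb2 and the Notch ligand Dll4.

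The endothelial threshold fell in a sparsely filled range. Among kept cells within the other limits, 18, 11 and 7 cells had 3, 4 and 5 endothelial UMI and lay just outside it. The 9, 4, 3 and 2 cells with 6, 7, 8 and 9 UMI lay just inside. The median LSEC had 74 endothelial UMI, the lowest 6 and the highest 359. The cells at 6 UMI were shallow, with a median of 895 UMI in all, against 7219 UMI for all LSEC. LSEC held 590 to 41933 UMI each, a median of 2856 genes and a median of 6.14% mitochondrial UMI, and their UMI summed to 6808861.

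**Figure D1:**
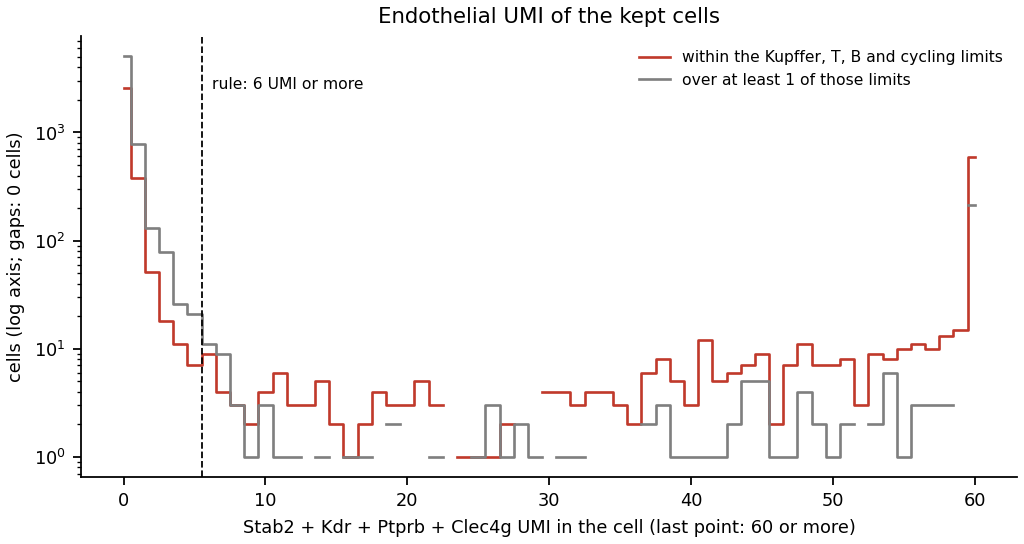
Kept cells (y axis, cells on a log axis) by their summed UMI of Stab2, Kdr, Ptprb and Clec4g (x axis, with 60 or more in the last point). The red line shows cells within the Kupffer, T, B and cycling limits and the grey line cells over at least 1 of them; few cells lie around the threshold of 6 UMI, marked by the dashed line.

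The limits on genes of other cell types removed cells rich in endothelial RNA. Of 1175 kept cells over the endothelial threshold, 308 failed at least 1 limit and 231 of them failed the Kupffer limit. In 222 cells the Kupffer sum was at least 20 UMI. These 222 cells had a median of 23777 UMI and medians of 86.5 endothelial and 265.5 Kupffer UMI. The doublet caller Scrublet marked 3 of them (1.35%), against 38 of 867 LSEC (4.38%) and 351 of 10366 kept cells (3.39%). Among all 308 cells that failed a limit it marked 52 (16.9%). Whether the 222 cells are doublets was not tested further. Within LSEC, 443 cells (51.1%) had no Kupffer UMI and 213 had 1. At the limit itself, 5 LSEC had 8 Kupffer UMI, and 2 cells over the endothelial threshold had 9.

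The values of these cells went against the label of immune cells. Ptprc, which encodes the leukocyte antigen CD45, stood at 104 CPM in LSEC, against 1298 CPM in the other 9499 kept cells. The 4 rule genes were each found in nearly every LSEC. The rule set a minimum for their sum only, which favours each gene without requiring it. Stab2 stood at 924 CPM and was seen in 93.8% of LSEC, with 0 to 34 UMI a cell and a median of 7. Kdr stood at 2427 CPM and was seen in 99.3%, with a median of 17 UMI and at most 105. Ptprb stood at 4150 CPM, with a median of 29 UMI and at most 179. Clec4g stood at 2855 CPM, with a median of 20 UMI and at most 97.

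Free RNA was gauged in B-rule cells, 2954 cells with at least 3 UMI of Ebf1 and Ms4a1 and at most 1 endothelial UMI. Their median depth was 3277.5 UMI, below the 7219 of LSEC. Clec4g had a UMI in 4.71% of B-rule cells, Ptprb in 2.95%, Kdr in 1.86% and Stab2 in 1.73%. The limit of 1 endothelial UMI caps these shares, so they may understate the free RNA of the rule genes. With each cell thinned to 2000 UMI, Clec4g was found in 98.3% of LSEC, against 2.85% of B-rule cells. Stab2 was found in 79.1% of thinned LSEC, against 0.94% of thinned B-rule cells. Both cell sets were chosen on these genes, so the contrast is in part fixed by the rules. Thinning left out 35 of 867 LSEC and 73 of 2954 B-rule cells.

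The contrast of LSEC with the other kept cells was led by Jam2, Galnt18 and Art3. This contrast restates the choice of cells and is a description. At a ratio of 2 or more, 20.9% of the 14528 genes were called, and at 0.5 or less 23.8%, with a median log2 ratio of 0.02 over all genes. The ratios of the leading genes lay close together, from 21.2 for Ramp2 to 25.2 for Jam2. The other cells included the 308 cells over the endothelial threshold that failed a limit, and the leading genes were not ranked without them. For 20 listed receptor and junction genes of endothelium, the median log2 ratio was 4.21 against all other cells. It was 7.61 against those under the endothelial threshold. Wnt2 had 264 CPM in LSEC, against 12.2 CPM in all other cells and 0.687 CPM in those under the endothelial threshold.

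Among these 20 leading genes, F8, the clotting factor VIII that LSEC are known to make, stood at 1504 CPM in LSEC, against 67.0 CPM in the other cells. Timp3, an inhibitor of metalloproteinases, stood at 1013 CPM in LSEC, against 43.9 CPM. Ramp2, a subunit of the adrenomedullin receptor, stood at 588 CPM in LSEC, against 27.7 CPM. All 3 were found in over 90% of LSEC, at 97.5%, 92.2% and 93.3%. Gja1, a gap junction protein, was seen in 81.5% of LSEC and the junctional adhesion molecule Jam2 in 76.5%. Ednrb, the endothelin B receptor, was less widely found, with a UMI in 37.6% of LSEC and up to 42 in a cell. Osmr, the oncostatin M receptor, was seen in 56.2%, at 130 CPM in LSEC against 5.93 CPM. The other leading genes were Wnt2, Adam23, Cyyr1, Podxl, Stox2, Fbxl7, Sema3f, Id4, Fat4, Plet1os, Art3, Galnt18 and Vstm4.

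**Figure D2:**
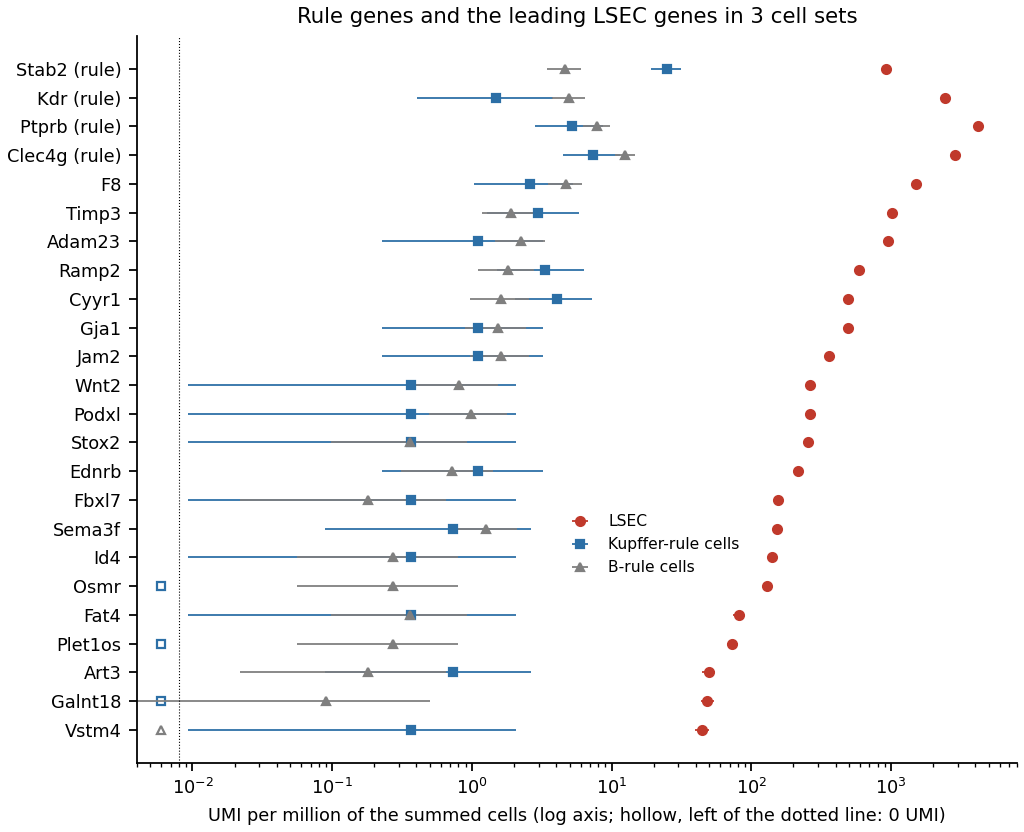
CPM on a log axis (x) of the 4 rule genes and the 20 leading genes (y), with exact Poisson 95% intervals, in LSEC (red), Kupffer-rule cells (blue) and B-rule cells (grey). LSEC values lie between 44.5 CPM for Vstm4 and 4150 CPM for Ptprb, and those of both other sets lie at or below 24.7 CPM. The rules of both other sets cap the 4 rule genes there.

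Kupffer cells, the macrophages of the sinusoid, share the blood space and many uptake receptors with LSEC. LSEC were therefore set against 258 Kupffer-rule cells, which had at least 20 Kupffer UMI and at most 1 endothelial UMI, with a median of 10978 UMI. Of the 11185 genes compared, 28.6% were called at a ratio of 2 or more and 13.6% at 0.5 or less, and the median log2 ratio was 0.37. Both sets were chosen on measured genes, so these ratios are descriptions too.

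Receptors and junction genes of endothelium were almost all higher in LSEC. Of 20 listed, 19 were called higher than in Kupffer-rule cells, with a median log2 ratio of 7.44. Eng, a co-receptor for BMP ligands, stood at 1360 CPM in LSEC, against 9.59 CPM in Kupffer-rule cells. Egfl7, a secreted endothelial matrix protein, stood at 1113 CPM in LSEC, against 11.1 CPM. The neuropilin Nrp1 stood at 1105 CPM, against 71.2 CPM, and the VEGF receptor Flt1 at 884 CPM, against 2.95 CPM. The exception was Cdh5, the cadherin of endothelial junctions, at a ratio of 1.77. Against all other kept cells, all 20 were called higher.

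Scavenger and lectin receptors were mostly higher in LSEC. Of 12 listed, 9 were called higher than in Kupffer-rule cells and 1 lower, with a median log2 ratio of 3.27. Fcgr2b, the inhibitory Fc receptor that takes up immune complexes, stood at 2525 CPM in LSEC, against 19.2 CPM in Kupffer-rule cells. In B-rule cells it stood at 108 CPM, with a UMI in 29.2% of cells. Mrc1, the mannose receptor, differed far less, at 2203 CPM in LSEC against 873 CPM in Kupffer-rule cells, a ratio of 2.52. Lyve1, a hyaluronan receptor, stood at 1369 CPM, against 7.01 CPM. Gpr182, a receptor that scavenges chemokines, stood at 1705 CPM, against 9.59 CPM. Lrp1, a large endocytic receptor, was the member called lower, at 8.81 CPM in LSEC against 468 CPM.

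The endocytic and lysosomal list was divided. Of 14 members, 4 were called higher in LSEC and 4 lower than in Kupffer-rule cells, with a median log2 ratio of 0.37, the value of all genes. Ehd3, which shapes recycling endosomes, stood at 2248 CPM in LSEC, against 20.7 CPM. The cysteine protease Ctsl stood at 1460 CPM in LSEC, against 273 CPM. In contrast, the protease Ctsb stood at 1039 CPM in LSEC, against 4992 CPM in Kupffer-rule cells. The membrane protein Lamp2 stood at 1069 CPM, against 480 CPM. The 2 proteases thus lay on opposite sides.

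All 5 members of the caveolae and diaphragm list that had 20 UMI were called higher in LSEC than in Kupffer-rule cells. Cavin2, a coat protein of caveolae, stood at 1024 CPM in LSEC, against 8.49 CPM. Cav2 stood at 174 CPM, against 2.95 CPM, and Cavin1 at 87.1 CPM, against 2.21 CPM. Plvap, which forms the diaphragms that most LSEC pores lack, stood at 134 CPM and was seen in 50.4% of LSEC, against 2.95 CPM in Kupffer-rule cells. Basement membrane genes were called higher in 9 of 10 members compared. Sparc, a collagen-binding matrix protein, stood at 1474 CPM in LSEC, against 10.7 CPM. The protease Adamts1 stood at 585 CPM, against 1.48 CPM, and the type IV collagen chain Col4a1 at 570 CPM, against 2.58 CPM. Lamb1, a laminin chain, had no UMI in LSEC.

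Of 22 endothelial transcription factors compared, 16 were called higher in LSEC than in Kupffer-rule cells and none lower. Maf, which is known to hold LSEC identity, stood at 3426 CPM in LSEC, against 1126 CPM. Nr2f2, a factor of venous endothelium, stood at 708 CPM, against 7.38 CPM. Ets1 stood at 1304 CPM in LSEC, against 51.7 CPM in Kupffer-rule cells and 1257 CPM in B-rule cells. Klf2, which responds to blood flow, did not separate the sets, at 1283 CPM in LSEC against 1431 CPM. Gata4, a factor that keeps sinusoids from turning into continuous capillaries, stood at 219 CPM in LSEC, against 0.738 CPM. It is named here after its value was seen.

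Secreted signals of LSEC formed a mixed list. Of 19 angiocrine ligands compared, 14 were called higher in LSEC than in Kupffer-rule cells and 3 lower. Bmp2, which drives hepcidin production in hepatocytes, stood at 1671 CPM in LSEC, against 5.90 CPM, and was seen in 95.5% of LSEC. Hgf, a growth factor of hepatocytes, stood at 208 CPM, against 26.9 CPM, and was seen in 61.2%. Tgfb1 stood at 258 CPM in LSEC, against 220 CPM, and Efnb1 at 219 CPM, against 8.49 CPM. Genes of BMP signalling were mixed. Id3, a BMP target, stood at 503 CPM in LSEC, against 1321 CPM, while the receptor Bmpr2 stood at 726 CPM, against 63.5 CPM. Of 14 BMP pathway genes, 8 were called higher and 4 lower, and Tmem100, a BMP target of other endothelia, had no UMI in LSEC.

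Of 11 Notch pathway genes compared, 6 were called higher in LSEC than in Kupffer-rule cells and 1 lower. The receptor Notch1 stood at 421 CPM in LSEC, against 49.8 CPM, and its target Hes1 at 219 CPM, against 103 CPM. Nrarp, a feedback inhibitor, stood at 72.0 CPM, against 1.11 CPM, whereas Adam10, the protease that cuts Notch, stood at 191 CPM, against 237 CPM. Clotting genes were called higher in 8 of 12 members and lower in 3. F2r, the thrombin receptor, stood at 556 CPM in LSEC, against 2.58 CPM, and Tfpi, the inhibitor of the tissue factor pathway, at 509 CPM, against 26.2 CPM. Pros1, a cofactor of activated protein C, stood at 472 CPM, against 48.3 CPM.

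Adhesion molecules and chemokines were called higher in 6 of 12 members and lower in 3. Cxcl10 and Cxcl9, chemokines induced by interferon gamma, stood at 975 and 312 CPM in LSEC, against 126 and 14.4 CPM in Kupffer-rule cells. Cxcl10 was uneven, and 93 of the 867 LSEC held 50% of its UMI. Cxcl16 stood at 241 CPM, against 196 CPM, and Icam2 at 203 CPM, against 19.9 CPM. Madcam1, the gut homing ligand, had no UMI in LSEC.

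Antigen presentation split by class. Of 15 genes, 10 were called lower in LSEC than in Kupffer-rule cells and none higher, with a median log2 ratio of -3.82. The class II chain H2-Aa stood at 70.3 CPM in LSEC, against 1776 CPM, and Cd74, the class II chaperone, at 179 CPM, against 4990 CPM. H2-Aa had a UMI in 14.5% of LSEC and Cd74 in 27.5%. B-rule cells, which express both, were in the matrix at 2769 CPM for H2-Aa, and the part of free RNA in the LSEC values was not tested. Class I genes were close, with B2m at 3138 CPM in LSEC against 2869 CPM and H2-K1 at 1833 CPM against 1851 CPM. H2-D1 stood at 1712 CPM in LSEC, against 2428 CPM, and Lgals9 at 242 CPM, against 197 CPM. H2-K1 and H2-D1 share sequence with other class I genes, so their counts are uncertain.

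Lipid genes differed in direction. Of 11 compared, 4 were called higher and 5 lower in LSEC than in Kupffer-rule cells. Gpihbp1, which anchors lipoprotein lipase on capillaries, stood at 1619 CPM in LSEC, against 7.75 CPM, and the fatty acid carrier Fabp4 at 1550 CPM, against 20.3 CPM. Cd36, a fatty acid and scavenger receptor, stood at 1030 CPM, against 36.9 CPM. Apoe stood at 3709 CPM in LSEC, against 15192 CPM, and had a UMI in 60.3% of B-rule cells. Lipg, endothelial lipase, had no UMI in LSEC. Immediate early genes, which also respond to tissue digestion, were called lower in 7 of 15 members and higher in 1. Egr1 stood at 2077 CPM in LSEC, against 2542 CPM, Junb at 1352 CPM, against 2439 CPM, Jun at 1273 CPM, against 1704 CPM, and Fos at 1203 CPM, against 3024 CPM.

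**Figure D3:**
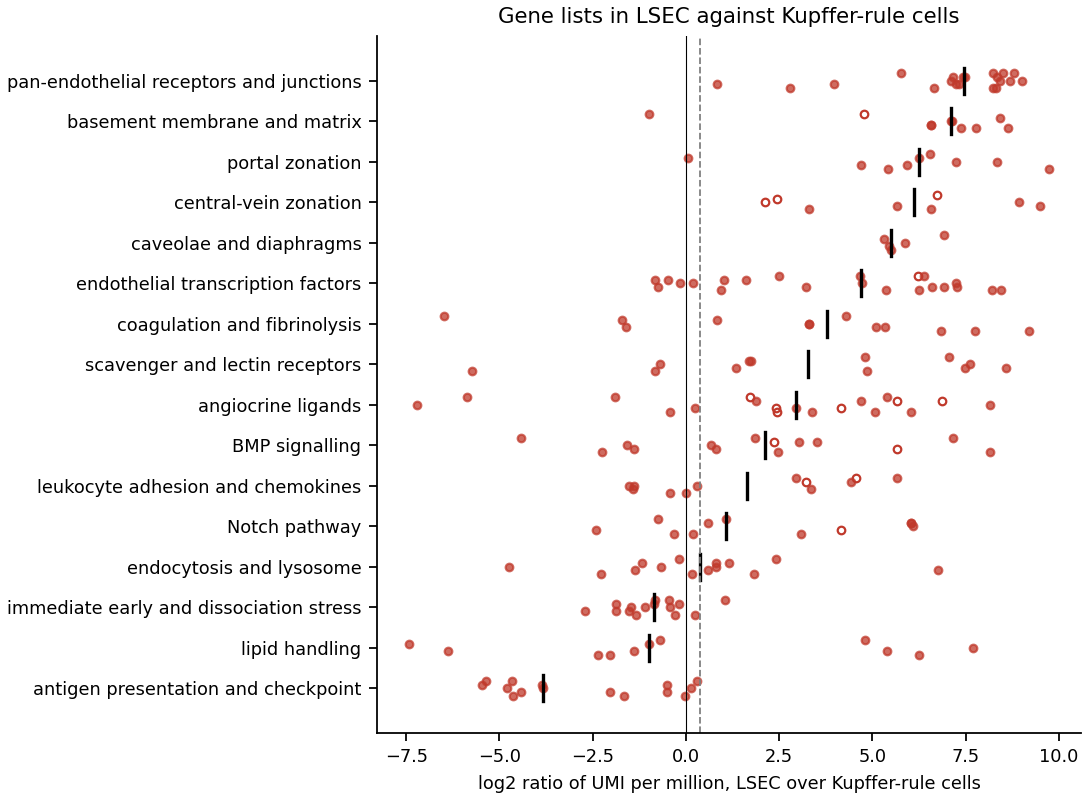
Each point is a listed gene with at least 20 UMI, placed by the log2 ratio of its CPM in LSEC over Kupffer-rule cells (x axis), and lists are ordered by their median, the black bar. Hollow points are bounds with 1 set at 0 UMI and the dashed line marks the median of all genes, 0.37; antigen presentation has its median at -3.82 and the pan-endothelial list at 7.44.

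The 5 zonation genes were looked at inside LSEC. Rspo3 was rare, with a UMI in 91 LSEC (10.5%) and a level of 106 CPM. The central ligand Wnt2 was seen in 61.5% of LSEC, and the stem cell factor receptor Kit, at 358 CPM, in 65.1%. On the portal side, Efnb2 stood at 181 CPM and was seen in 54.8% of LSEC, and Dll4 stood at 94.3 CPM and was seen in 41.4%. In B-rule cells the shares were 0.135% for Rspo3, 0.305% for Wnt2, 0.474% for Kit, 0.779% for Dll4 and 1.69% for Efnb2. After thinning to 2000 UMI, Rspo3 was seen in 7.21% of LSEC, Wnt2 in 34.3%, Kit in 40.3%, Dll4 in 14.7% and Efnb2 in 26.0%.

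Rspo3 was concentrated in few cells, whereas the other 4 genes were spread thinly. Of the 867 LSEC, 776 had no Rspo3 UMI, 31 had 1, 11 had 2 and 33 had 6 or more, and the highest had 64. As few as 10 cells held 50% of its 722 UMI. Median UMI per cell were 1 for Wnt2, 1 for Kit, 1 for Efnb2 and 0 for Dll4, with maxima of 20, 37, 15 and 8. The Rspo3 level moved with the mitochondrial limit. It was 203 CPM in LSEC with at most 5% mitochondrial UMI, against 106 CPM at the limit of 10%. Selp and Vegfc, described with the central and portal cells, moved alike, to 35.7 and 30.1 CPM at 5%, against 18.5 and 15.4 CPM at 10%.

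Promoter sequence is shown for Wnt2 and Efnb2, whose transcripts lie on opposite sides, for Ntn4, a portal gene, and for Kdr, a rule gene found on both sides. The windows run 5′ to 3′ from 250 bases before to 50 bases after the gene's start, from RefSeq on GRCm38.p6. Wnt2 lies at chr6:18030396-18030695 on the minus strand and Efnb2 at chr8:8661193-8661492 on the minus strand. Ntn4 lies at chr10:93640799-93641098 on the plus strand and Kdr at chr5:75978406-75978705 on the minus strand. Capitals mark exact matches on either strand to 5 motifs. The GC box was searched as GGGCGG and the TATA box as TATAAA. The core motif of RBPJ, the nuclear effector of Notch, was searched as GTGGGAA. The ETS core was searched as CCGGAA and the GATA core as AGATAA. Matches may overlap, as 2 GC boxes do in Ntn4.
Wnt2: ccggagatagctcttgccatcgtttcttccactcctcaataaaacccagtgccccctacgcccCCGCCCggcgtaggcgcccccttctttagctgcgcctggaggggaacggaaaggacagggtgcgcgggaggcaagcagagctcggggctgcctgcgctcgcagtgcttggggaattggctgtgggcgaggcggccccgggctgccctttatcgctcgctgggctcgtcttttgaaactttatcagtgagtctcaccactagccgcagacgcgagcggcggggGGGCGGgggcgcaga
Efnb2: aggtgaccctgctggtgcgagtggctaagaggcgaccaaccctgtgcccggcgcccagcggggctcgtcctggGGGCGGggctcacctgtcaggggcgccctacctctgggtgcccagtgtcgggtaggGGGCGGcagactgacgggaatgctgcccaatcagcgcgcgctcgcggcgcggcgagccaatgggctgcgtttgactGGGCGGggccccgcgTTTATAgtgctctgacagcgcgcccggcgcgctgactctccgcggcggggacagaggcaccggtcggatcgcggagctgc
Ntn4: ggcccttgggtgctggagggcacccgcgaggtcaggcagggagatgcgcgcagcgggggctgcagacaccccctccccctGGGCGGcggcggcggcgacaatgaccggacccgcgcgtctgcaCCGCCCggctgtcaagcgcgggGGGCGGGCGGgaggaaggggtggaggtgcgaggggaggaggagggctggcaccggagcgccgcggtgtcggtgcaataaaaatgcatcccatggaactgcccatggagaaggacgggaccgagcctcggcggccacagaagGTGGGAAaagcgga
Kdr: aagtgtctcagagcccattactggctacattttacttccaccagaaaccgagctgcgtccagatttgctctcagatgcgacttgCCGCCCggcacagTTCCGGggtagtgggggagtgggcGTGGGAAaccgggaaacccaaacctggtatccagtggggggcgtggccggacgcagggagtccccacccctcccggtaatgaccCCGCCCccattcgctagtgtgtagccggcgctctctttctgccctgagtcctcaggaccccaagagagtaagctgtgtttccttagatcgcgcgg

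Of the 32851 promoter windows in the table, 35.7% hold a GC box, 13.6% a TATA box, 14.9% an ETS core, 11.2% a GATA core and 6.38% an RBPJ core. Counted from 1 at the left end, Wnt2 has GC boxes starting at bases 64 and 286. Efnb2 has GC boxes at bases 74, 130 and 206 and a TATA box at base 221. Ntn4 has GC boxes at bases 81, 124, 146 and 150 and an RBPJ core at base 287. Kdr has GC boxes at bases 85 and 206, an ETS core at base 98 and an RBPJ core at base 122. Over the windows of the zonation lists, an RBPJ core lay in 1 of 11 portal windows (9.09%), that of Ntn4, and in 0 of 7 central-vein windows. These counts are of windows and not genes. Lhx6, Kit, Mecom and Ltbp4 have several windows each, and some windows of Kit and of Ltbp4 overlap. These matches describe letters and not binding. Of 22 genes looked for, 15 had a promoter in the table, and Rspo3, Cdh13, Thbd, Msr1 and Ptprb had no entry.

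LSEC were then cut on the 5 zonation genes. Central LSEC had a UMI of Rspo3, Wnt2 or Kit and none of Dll4 and Efnb2, and portal LSEC the reverse. Central LSEC numbered 233 (26.9%, exact interval 23.9 to 30.0%) and portal LSEC 153 (17.6%, 15.2 to 20.4%). With the cut on thinned cells, central LSEC were 41.1% and portal LSEC 21.4%. With Kit left out, central LSEC were 24.1% and portal LSEC 29.3%, which turns their order round. A further 435 LSEC (50.2%) had UMI of both sides and 46 (5.31%) of neither. The cut is a range and not a cell type. It moved with depth, since median UMI were 6595 in central, 6695 in portal, 7986 in cells with both and 3522 in cells with neither. Central and portal LSEC thus had like depths, with medians of 68 and 64 endothelial UMI.

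The 5 genes were found together by side. Among 832 LSEC thinned to 2000 UMI, 48 cells had both Rspo3 and Kit, 1.99 times the number given by the product of their shares. Rspo3 and Wnt2 met in 41 cells, also 1.99 times the product. Rspo3 met Dll4 in 3 cells, 0.341 times the product, and Efnb2 in 3 cells, 0.193 times. Wnt2 and Kit met in 164 cells, 1.43 times, and Dll4 and Efnb2 in 39 cells, 1.23 times. Kit met Dll4 at 0.896 times and Efnb2 at 0.678 times the product, and Wnt2 met them at 0.814 and 0.568 times. All 4 pairs from 1 side lay above 1 and all 6 pairs across sides below 1. These ratios carry no test.

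Central LSEC were set against portal LSEC over the genes the cut did not use. Of 8997 genes compared, 3.97% were called at a ratio of 2 or more and 2.39% at 0.5 or less, with a median log2 ratio of 0.01. The compared members of both remaining zonation lists, which were chosen with earlier results of these data known, lay on their own side. Of the 5 central-vein genes outside the cut, 4 had enough UMI to be compared. All 4 were called higher in central LSEC, with a median log2 ratio of 3.45. Wnt9b had no portal UMI and was compared on its central UMI alone. The count leaves out Dkk3, which was too low to compare. Of the 7 portal genes compared, 6 were called lower, with a median of -2.52.

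Markers of other cells moved with the cut, in different directions. Markers of larger vessels summed to 433 CPM in central and 1253 CPM in portal LSEC, and of the 4 compared, 1 was called higher and 3 lower. Ly6a stood at 358 CPM in central and 1170 CPM in portal LSEC. Kupffer markers summed to 202 CPM in central and 113 CPM in portal LSEC, with 3 of 5 called higher, C1qb among them at 86.9 CPM in central and 31.8 CPM in portal LSEC. Neutrophil markers summed to 849 CPM in central and 485 CPM in portal LSEC. Their part in the ratios was not tested.

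On the central side, Cdh13, an adhesion molecule that binds adiponectin, stood at 244 CPM in central LSEC and 15.9 CPM in portal LSEC, a ratio of 15.3 (interval 9.44 to 26.6). It had a UMI in 56.2% of central and 8.50% of portal LSEC. Cells with both stood between, at 98.7 CPM. Thbd, the thrombin receptor thrombomodulin, stood at 465 CPM in central and 131 CPM in portal LSEC, a ratio of 3.55 (2.96 to 4.28). Lhx6, a homeobox transcription factor, stood at 47.9 CPM in central and 0.936 CPM in portal LSEC, and the 1 portal UMI leaves the ratio of 51.1 with an interval of 8.9 to 2045. The Wnt ligand Wnt9b stood at 22 CPM in central LSEC and had no portal UMI, at least 7.85-fold higher. Dkk3 was too low to compare, at 5.04 CPM in central and 3.74 CPM in portal LSEC.

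On the portal side, Msr1, a scavenger receptor, stood at 112 CPM in central LSEC and 858 CPM in portal LSEC, a ratio of 0.131 (interval 0.111 to 0.153). It had a UMI in 27.0% of central and 89.5% of portal LSEC. Ntn4, a secreted netrin, stood at 115 CPM in central and 720 CPM in portal LSEC, a ratio of 0.16. The ephrin Efnb1 stood at 86.9 CPM in central and 498 CPM in portal LSEC. Mecom, a transcription factor of arterial endothelium, stood at 13.2 CPM in central and 174 CPM in portal LSEC, a ratio of 0.0759 (0.0459 to 0.12). Ltbp4, which binds latent TGF-beta, stood at 290 CPM in central and 763 CPM in portal LSEC, a ratio of 0.38. Adam23 stood at 586 CPM in central and 1455 CPM in portal LSEC, and its log2 ratio of -0.96 with the cut made on thinned cells missed the fold. The exception was the arterial factor Sox17, at 46.0 CPM in central and 66.5 CPM in portal LSEC, a ratio of 0.692 (0.492 to 0.973).

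**Figure D4:**
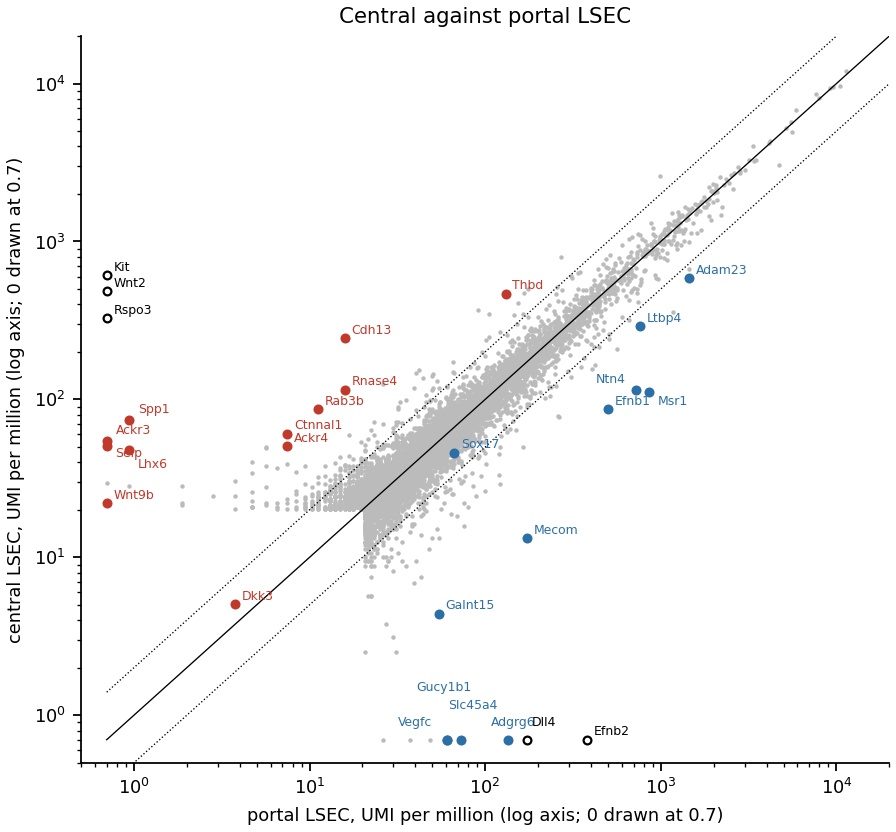
CPM in central LSEC (y axis) against portal LSEC (x axis), both on log axes. Grey points are genes with at least 20 UMI over both sets and at least 20 CPM in 1 or both. Dotted lines mark ratios of 2 and 0.5, and the named zonation genes lie on the side of their list, Cdh13 above and Msr1 below.

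The genes of the most extreme ratios included receptors and enzymes. Ackr3, a scavenging receptor of the chemokine CXCL12, stood at 54.8 CPM in central LSEC and had no portal UMI, at least 19.5-fold higher. The leukocyte adhesion molecule Selp stood at 51.0 CPM and had no portal UMI, at least 18.2-fold higher. Rnase4, a secreted ribonuclease, stood at 115 CPM in central and 15.9 CPM in portal LSEC. Rab3b stood at 86.9 CPM in central and 11.2 CPM in portal LSEC. Ctnnal1 stood at 60.5 CPM in central and 7.49 CPM in portal LSEC. Ackr4, another scavenging chemokine receptor, stood at 50.4 CPM in central and 7.49 CPM in portal LSEC. Spp1 rested on 1 cell, which held 117 of its 126 UMI in LSEC.

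At the portal end, Adgrg6, an adhesion G protein coupled receptor, stood at 0.63 CPM in central LSEC and 136 CPM in portal LSEC. It was seen in 6.57% of all LSEC. Vegfc, the growth factor of lymphatic vessels, stood at 0.63 CPM in central and 60.8 CPM in portal LSEC, a ratio of 0.0103 (interval 0.000258 to 0.0597). Gucy1b1, a subunit of the nitric oxide receptor, had the same levels. Slc45a4 had no UMI in central LSEC and 73.0 CPM in portal LSEC, a ratio of at most 0.0259. Galnt15 stood at 4.41 CPM in central and 54.3 CPM in portal LSEC. Cells with both lay between the sides, at 14.1 CPM for Adgrg6 and 9.54 CPM for Vegfc.

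With the cut made on thinned cells, 20 of the 24 named ratios lay closer to 1 and 4 farther from it. The log2 ratio of Cdh13 was then 2.90, against 3.94 on whole cells, and that of Msr1 was -2.04, against -2.94. Mecom stood at -2.77, against -3.72, and Vegfc at -3.91, against -6.59. The 4 that lay farther were Selp at 5.71, against at least 4.18, Slc45a4 at -6.41, against at most -5.27, Adgrg6 at -8.14, against -7.75, and Dkk3 at 1.58, against 0.43. The whole-cell values of Selp and Slc45a4 are bounds. None of the 24 changed sign with this cut.

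**Figure D5:**
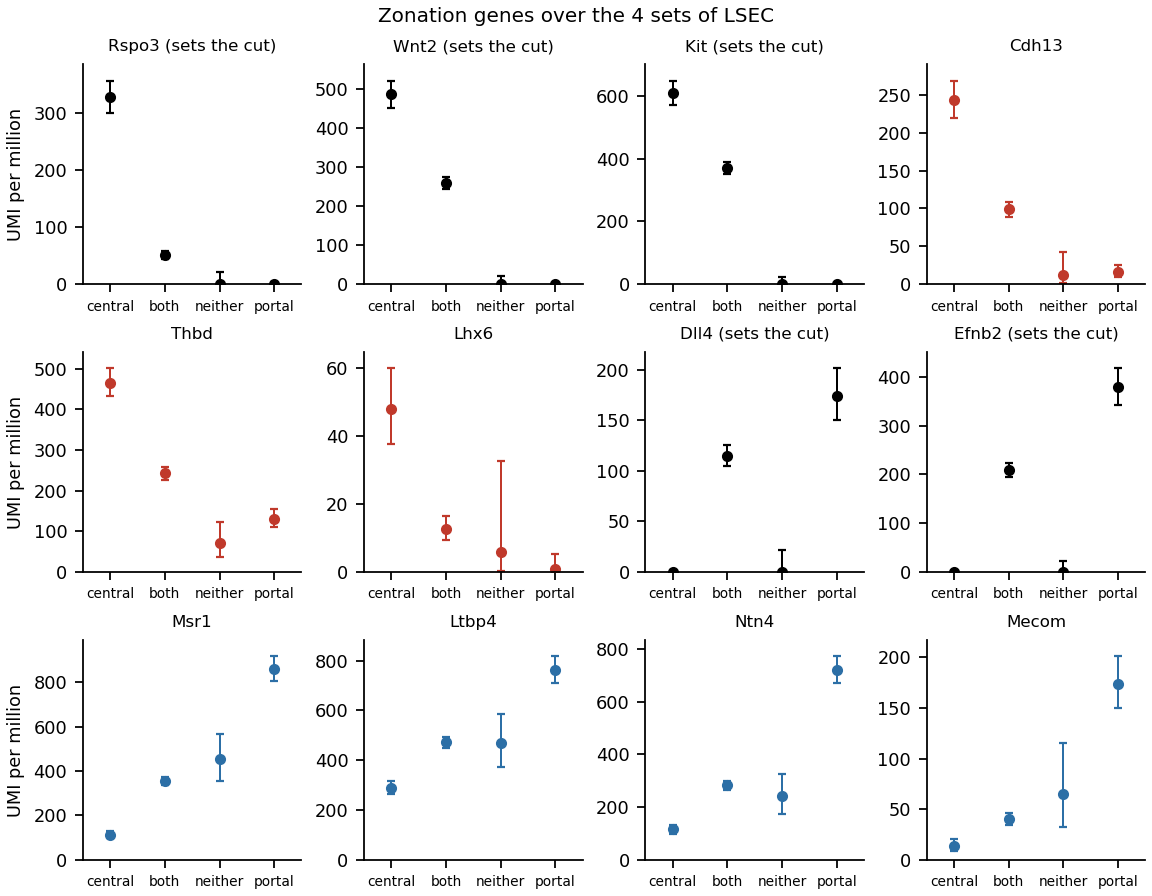
CPM (y axis, linear and scaled for each gene) of zonation genes in central LSEC, LSEC with both, LSEC with neither and portal LSEC (x axis, in that order), with exact Poisson 95% intervals. Cdh13 and Thbd are highest in central LSEC, at 244 and 465 CPM, and Msr1 and Ntn4 in portal LSEC, at 858 and 720 CPM.

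The other lists differed in how many members the cut separated. None of the 20 pan-endothelial genes and none of 12 BMP pathway genes was called in either direction, a share near that of all genes. The rule genes Ptprb and Clec4g had ratios of 1.03 and 1.04. Members called in the other lists are named after their values were seen. Of 10 clotting genes, 4 were called higher in central LSEC and 1 lower. Gas6, a ligand of TAM receptors, stood at 367 CPM in central and 90.8 CPM in portal LSEC. Plau, the urokinase, stood at 24.6 CPM in central and 3.74 CPM in portal LSEC. Of 11 adhesion and chemokine genes, 4 were called higher and none lower, and E-selectin, Sele, stood at 21.4 CPM in central and 1.87 CPM in portal LSEC.

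Of 15 angiocrine ligands, 2 were called higher in central LSEC and 6 lower. This list also holds Wnt9b and Efnb1, counted above with the zonation lists, and Vegfc, so its counts in part restate those genes. The Notch ligand Jag1 stood at 9.45 CPM in central and 40.3 CPM in portal LSEC, and Angpt2, a ligand of the Tie2 receptor, at 6.93 CPM in central and 39.3 CPM in portal LSEC. Of 10 Notch pathway genes, 2 were called in each direction. Lfng, which modifies Notch receptors, stood at 36.5 CPM in central and 6.55 CPM in portal LSEC, and Nrarp at 45.3 CPM in central and 120 CPM in portal LSEC. Fabp4 stood at 2585 CPM in central and 983 CPM in portal LSEC. Cd36 stood at 671 CPM in central and 1443 CPM in portal LSEC, and the laminin chain Lama4 at 77.5 CPM in central and 264 CPM in portal LSEC. None of 15 immediate early genes was called, with a median log2 ratio of -0.39.

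A set of 49 LSEC with at least 3 Rspo3 UMI, chosen after the values were seen, was set against the 776 LSEC without Rspo3. Of these 49 cells, 35 were central, 14 had both sides and none was portal. Of 10416 genes compared, 6.47% were called at a ratio of 2 or more and 6.07% at 0.5 or less. The median depth was 7510 UMI in Rspo3-rich LSEC and 7196.5 UMI in LSEC without Rspo3. All 7 central-vein genes compared were called higher in Rspo3-rich LSEC, and 8 of 9 portal genes lower. Kupffer markers summed to 330 CPM in Rspo3-rich LSEC and 151 CPM in LSEC without Rspo3, and stellate markers to 152 CPM in Rspo3-rich LSEC and 75.1 CPM in the others. Their part in the ratios was not tested. The genes below are named after their values were seen.

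Selp stood at 260 CPM in Rspo3-rich LSEC and 1.65 CPM in LSEC without Rspo3, a ratio of 157 (interval 82.4 to 338). Wnt9b stood at 79.4 CPM in Rspo3-rich LSEC and 1.16 CPM in the others. Thbd stood at 840 CPM in Rspo3-rich LSEC and 227 CPM in the others. Cdh13 stood at 553 CPM in Rspo3-rich LSEC and 78.9 CPM in the others, and Wnt2 at 731 CPM in Rspo3-rich LSEC and 222 CPM in the others. Vwf, the von Willebrand factor of larger vessels, stood at 69.8 CPM in Rspo3-rich LSEC and 12.1 CPM in the others. Bmp4 stood at 55.3 CPM in Rspo3-rich LSEC and 0.33 CPM in the others, and only 8 LSEC had a UMI of it.

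The hyaluronan receptor Lyve1, which did not separate central from portal LSEC at a ratio of 0.967, stood at 231 CPM in Rspo3-rich LSEC and 1453 CPM in LSEC without Rspo3, a ratio of 0.159 (interval 0.129 to 0.194). Msr1 stood at 7.22 CPM in Rspo3-rich LSEC and 421 CPM in the others. Clec4g stood at 1824 CPM in Rspo3-rich LSEC and 2958 CPM in the others, and Ptprb at 5471 CPM in Rspo3-rich LSEC and 4023 CPM in the others. Plvap stood at 378 CPM in Rspo3-rich LSEC and 113 CPM in the others. Fabp4 stood at 4624 CPM in Rspo3-rich LSEC and 1260 CPM in the others. The sinusoidal name here only follows the rule, and the markers were mixed. Lyve1, Msr1 and Clec4g were lower and Selp and Vwf higher, while Msr1 is also a gene of the portal list. None of the 4 rule genes, Clec4g among them, was called. They summed to 9796 CPM in Rspo3-rich LSEC and 10368 CPM in the others. Of the 8 markers of larger vessels, 4 were compared, and 2, Selp and Vwf, were called higher and none lower. Cd34, Ly6c1, Sema3g and Gja5 had no UMI in Rspo3-rich LSEC. The 8 markers summed to 722 CPM in Rspo3-rich LSEC and 613 CPM in the others. Over all LSEC this sum rests mostly on Ly6a, so it can hide shifts of other members. Whether some of the Rspo3-rich cells line larger vessels was not tested.

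Markers of other cells were summed in LSEC. The 8 markers of larger vessels summed to 603 CPM in LSEC, against 319 CPM in the other kept cells, and Ly6a, of a family of similar genes whose counts are uncertain, gave 551 CPM of the LSEC sum. Vwf had a UMI in 31 LSEC (3.58%). Lymphatic markers summed to 10.7 CPM, with Pdpn and Ccl21a at 0. The sums of Kupffer, B, T and cycling markers include the genes that the rule limited and are in part fixed by it. The 11 Kupffer markers summed to 163 CPM in LSEC, against 30150 CPM in Kupffer-rule cells and 125 CPM in B-rule cells. Hepatocyte markers summed to 265 CPM in LSEC, against 222 CPM in B-rule cells. Stellate markers summed to 79.9 CPM, with Col3a1 at 0, and cholangiocyte markers to 18.9 CPM, with Krt19, Sox9 and Krt7 at 0.

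Neutrophil markers summed to 630.5 CPM in LSEC, against 8368 CPM in the other kept cells and 1657 CPM in B-rule cells. In LSEC, 3 cells held 50% of the UMI of S100a9 and 3 cells those of S100a8. Without the Scrublet calls, S100a9 stood at 31.3 CPM in LSEC, against 358 CPM with them, and S100a8 at 19.7 CPM, against 206 CPM. B cell markers summed to 21.7 CPM in LSEC and T cell markers to 6.32 CPM. NK, monocyte, platelet and cycling markers summed to 15.9, 71.5, 24.1 and 15.6 CPM. Erythroid markers summed to 125 CPM in LSEC, against 93.1 CPM in the other kept cells, and 1 LSEC held 448 of 483 Hbb-bs UMI. The 46 LSEC with neither side had Ptprc at 416 CPM and the T and NK cell chemokine Ccl5 at 968 CPM. The part of these markers in the results was not tested.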

How the data were processed

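Single-cell RNA from sorted suspensions of mouse liver was measured with 10x Genomics droplets in 2 samples, Rcrin KO and WT. The deposited values are UMI counts per gene and barcode. Cell Ranger 2.1.1, STAR, Seurat 2.3.4 and mm10 are named per the submitters' processing notes, and the matrix header names software version 3.0.0. Both samples hold 1 matrix, so nothing was tested between them.

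The minimum for a barcode was 500 UMI and 200 genes, and the limit on mitochondrial UMI was 10%. The gene minimum was missed by 56 barcodes and the mitochondrial limit by 778. Cells were summed per set and scaled to 1000000 UMI. Intervals are exact: Clopper-Pearson for shares, Poisson for levels and conditional on the sum for ratios, at 95%. Ratios were computed for genes with at least 20 UMI over the cells compared. Their recovery was checked on simulated Poisson counts, the model that the intervals assume. The check therefore leaves out unevenness between cells. Thinning drew 2000 UMI per cell. Doublets were called, and not removed, with Scrublet in scanpy 1.11.5. Python 3.11.15, numpy 2.4.6, scipy 1.17.1 and pandas 2.3.3 were used.

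Named genes are the rule and zonation genes, the 4 highest members of each of 16 lists and those at 0 in LSEC, the 20 with the highest ratio over the other cells among genes seen in at least 25% of LSEC, the 8 highest and 8 lowest central over portal ratios at 50 CPM or more, and the members of both zonation lists. Members and lists were chosen with earlier results of these data known. Rspo3-rich LSEC were added, and the exceptions Cdh5 and Lrp1 named, after the values were seen. B-rule cells were taken as a measure of free RNA, except that their rule caps the 4 endothelial rule genes. Alternatives changed the thresholds, doublets, scaling, gene filter and cut.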

Additional observations from a re-analysis of the deposited data

How the results depend on the processing

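The share of LSEC was 7.38% with at most 2 Kupffer UMI and 4.78% with at most 5% mitochondrial UMI, against 8.36%. Without the gene filter, 4806 genes had a ratio of 2 or more in LSEC over the other cells, against 3039, and 3496 had 0.5 or less, against 3453, since more genes were compared. With at most 5% mitochondrial UMI these counts were 3133 and 2602, and with each cell weighted equally 3515 and 3475. In all of these settings more genes were higher than lower, the reverse of the reported balance. Without the gene filter, central over portal LSEC had 862 genes at 2 or more, against 357, and 539 at 0.5 or less, against 215. With the cut on thinned cells central LSEC were 41.1% and portal LSEC 21.4%, and with Kit left out portal LSEC were 29.3%, since fewer UMI or genes define the sides. Of the central over portal ratios of named genes, the sparse Dkk3 changed sign, with a log2 ratio of -0.056 without cells holding a UMI of 7 genes of other cell types, a setting chosen after seeing the data, against 0.43, and no other did in the settings run. Ratios of single genes in LSEC over other or Kupffer-rule cells were not recomputed. Among levels of named genes, 28 of 158 moved by over 1.5 times with at most 5% mitochondrial UMI and 19 of 158 without Scrublet calls. Among central over portal ratios, 16 of 24 did so with the cut on thinned cells and 11 of 24 with Kit left out. The cause of the mitochondrial and Scrublet shifts was not tested. No paired analysis was possible because both samples hold 1 matrix. With 1 matrix, no value has an error between animals, and genes under about 20 UMI could not be compared.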
